A study of Mus musculus with 4 samples.

Results

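Messenger RNAs that carry AU-rich elements, short adenine and uridine tracts in the tail of many cytokine and immediate early transcripts, are degraded quickly, and macrophages use this to switch inflammation off. The TTP family of zinc finger proteins binds these elements and recruits the enzymes that shorten the poly(A) tail, which opens the message to decapping and to the exosome. KSRP and AUF1 also bind AU-rich elements, with KSRP as a decay factor and AUF1 as a factor whose effect depends on the target, whereas HuR binds the same class of element and tends to stabilise the message. The 6 genes described here are Zfp36, which encodes TTP itself, its paralogues Zfp36l1 and Zfp36l2, Khsrp (KSRP), Hnrnpd (AUF1) and Elavl1 (HuR). They were chosen by name, and the array held 8 probes for them, of 39429 probes in all. Among the probes that could be named, 27655 stood for 20971 genes.

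The cells were RAW 264.7, a mouse macrophage-like line of BALB/c origin transformed by Abelson leukaemia virus. The groups were untreated cells and cells exposed for 1, 4 or 6 h to Lactobacillus bulgaricus, a lactic acid bacterium of fermented milk, at a multiplicity of infection of 10. Each group had 1 two-colour array, with RNA pooled in equal amounts from 3 cultures in the Cy5 channel and a common reference, labelled as pooled RNA of all groups, in the Cy3 channel. With 1 array per group no difference has a replicate check and no p-value is given, so that the number of arrays limits the precision. All 4 arrays shared 1 slide and 1 scan and were placed on it in the order of time, so the effect of place cannot be told apart from that of time.

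Between 49.5% and 51.8% of the spots on each array were well above background in Cy5. Of 10 macrophage markers 9 had a probe, and 6 to 7 of them were well above background in Cy5; Cd68 had no matched probe, and Cd14 and Mrc1 were not measured. Intestinal epithelial markers were also present. Their processed Cy5 signals summed to 3736 in untreated cells and to 8030, 5042 and 3728 at 1, 4 and 6 h. Their reference signals summed to between 12137 and 18353, so the lowest reference sum was above the highest Cy5 sum. Whether the reference held RNA from beyond these groups was not tested. Smooth muscle and stromal markers summed to 1657 in Cy5 on the untreated array and to 2819, 5184 and 4124 at 1, 4 and 6 h. The part of these transcripts in the values below was not tested.

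None of the decay factor genes passed the rule of size, a log2 difference of at least 1 from the untreated array in the ratio of Cy5 over Cy3. Of the 6 genes 5 were measured, meaning well above background in both channels of both arrays, and Zfp36 was not. At each of the 3 times 0 of the 5 genes passed the rule, which 0.376%, 0.455% and 0.922% of all measured genes passed at 1, 4 and 6 h. The median difference of the 5 was -0.10, -0.03 and 0.05 at 1, 4 and 6 h, beside 0.06, 0.00 and -0.01 over all measured genes. The gene with the largest difference was Zfp36l2, at -0.69 after 6 h.

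**Figure D1:**
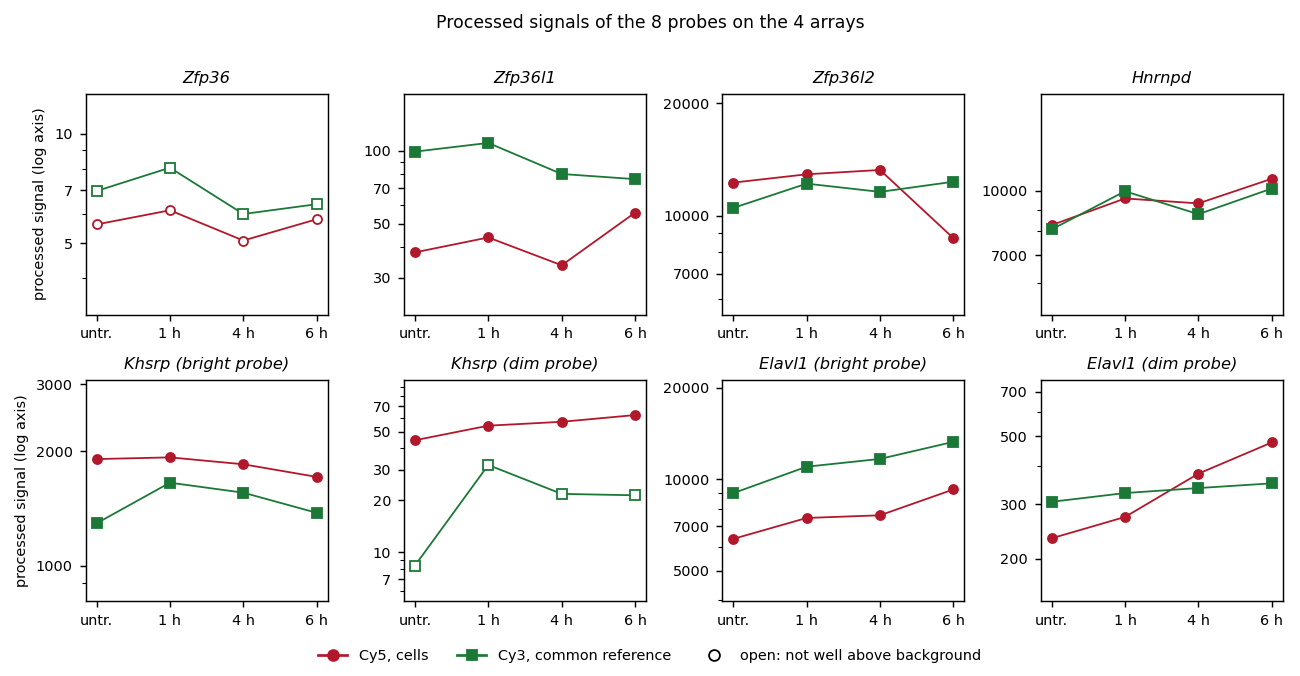
Processed signals of the 8 probes (vertical log axes, arbitrary units) on the untreated, 1, 4 and 6 h arrays, in Cy5 for the cells and Cy3 for the common reference, each point 1 spot. Both channels of the Zfp36 probe lie between 5.08 and 8.06 with open symbols throughout, and the Cy5 line of Zfp36l2 lies below its reference at 6 h only.

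Zfp36 encodes TTP, the founding member, whose own transcription is switched on within minutes by many stimuli in macrophages. Its single probe (accession NM_011756) was not well above background in either channel on any of the 4 arrays. Its processed Cy5 signals were 5.63 in untreated cells and 6.16, 5.08 and 5.82 after 1, 4 and 6 h, and its reference signals were 6.96, 8.06, 6.01 and 6.40 on the same arrays. Before correction the spot stood 13.5 units above its local background in Cy5 for untreated cells and 6.0, 4.0 and 7.5 units above it at 1, 4 and 6 h. The 153 negative control spots had Cy5 medians of 6.0, 9.5, 6.0 and 6.5 units on those arrays, so that the treated values lay among the controls and the untreated value above 99.3% of them. In the reference channel the spot stood above 100% of the negative controls on the array of untreated cells and above 2.6% to 59.5% of them on the other arrays. No fold or time course of TTP mRNA is therefore given, and the dim signal does not show that the mRNA was absent.

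The promoters of Zfp36 and Zfp36l1 are shown because these paralogues are the classic mitogen-responsive members of the family, and because the array gave no time course for the first of them. The sequences are from RefSeq on GRCm38.p6 and cover the 250 bases before the annotated start, 5′ to 3′ on the minus strand. Capitals mark matches, on either strand, to the letters GCGGGGGCG (EGR), TTCNNNGAA (STAT), TGANTCA (AP-1) or TGACGTCA (CRE), or to the consensus of SRF or of NF-kB. RefSeq windows were found for 5 of the 6 genes; Zfp36l2 was the other.
Zfp36, chr7:28379229-28379478: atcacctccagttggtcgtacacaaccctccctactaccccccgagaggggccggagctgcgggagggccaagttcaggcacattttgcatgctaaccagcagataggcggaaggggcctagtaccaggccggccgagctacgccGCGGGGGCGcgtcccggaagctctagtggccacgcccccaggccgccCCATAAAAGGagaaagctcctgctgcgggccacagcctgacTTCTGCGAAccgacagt
Zfp36l1, chr12:80113014-80113263: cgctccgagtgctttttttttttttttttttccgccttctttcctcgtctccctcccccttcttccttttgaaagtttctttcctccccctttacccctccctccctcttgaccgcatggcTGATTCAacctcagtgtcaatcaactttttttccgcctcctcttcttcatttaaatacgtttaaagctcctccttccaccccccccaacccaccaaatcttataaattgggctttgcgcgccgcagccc

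Counting -1 as the base just before the start, the Zfp36 window held an EGR match at -105 to -97, an SRF match at -58 to -49 and a STAT match at -17 to -9. The EGR letters occur in 2.57% of the 32851 promoter windows of this length, the SRF consensus in 1.47% and the STAT letters in 7.02%. The SRF match shares 1 base, at -58, with a GGGCGG match (SP1) on the other strand, and GGGCGG occurs in 32.7% of windows. The Zfp36l1 window held an AP-1 match at -129 to -123, and these letters occur in 6.75% of windows. Neither window held the CRE letters (1.55% of windows) or the NF-kB consensus (7.25%). The windows of Khsrp and Hnrnpd held GGGCGG and none of the other motifs, and that of Elavl1 held none. A match is a description of letters and no evidence of binding, and these arrays did not measure it.

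Zfp36l1 encodes BRF1, a TTP paralogue that acts in lymphocyte and vascular development. Its single probe (NM_007564) was dim but well above background in both channels on all 4 arrays, with processed Cy5 signals of 38.1, 43.9, 33.7 and 55.6 in untreated cells and after 1, 4 and 6 h. The reference signals were 99.3, 108, 80.3 and 76.5. Cy5 was thus highest at 6 h, on the array where the reference was lowest. The normalized log2 ratio was -0.38, -0.20, -0.43 and -0.14, which gave differences of 0.18, -0.05 and 0.24 at 1, 4 and 6 h. Replicate spots of other probes of like brightness had SDs of 0.11, 0.13 and 0.13 for such a difference, a measure of spot error and not of the spread between cultures.

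For this dim probe the value depended on the background correction. In the scanner software's processed signals the difference at 6 h was 0.92, with an error of 0.44 by that software's own model, and only 2.68% of measured genes were as high or higher. Normexp had been fitted on all spots, some of which had outlying local backgrounds. A spot minus its background reached -9334 units in Cy3 on the 1 h array and -1792 in Cy3 on the untreated array. The negative controls then came out at 8.85 in Cy5 and 11.9 in Cy3 on the 6 h array, against 77.1 and 75.3 on the untreated array. On the 1 h array they came out at 34.4 and 155.9. A fit without spots with outlying backgrounds, chosen after seeing the data, gave 8.15 to 20.05 on all arrays and differences of 0.16, 0.14 and 0.44 for Zfp36l1 at 1, 4 and 6 h. The 6 h value was above 0 under all 12 alternatives, from 0.15 in Cy5 alone to 0.92 in the deposited ratio, and passed the rule of size under none of them.

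Zfp36l2 encodes BRF2, the family member known for its roles in early embryos and in blood stem cells. Its probe (NM_001001806) was bright, with processed Cy5 signals of 12262 in untreated cells and 12906, 13254 and 8710 after 1, 4 and 6 h. The reference signals were 10494, 12185, 11583 and 12330. The 6 h array alone was low in Cy5, and its reference was the highest of the 4. The log2 ratio was 0.18, 0.06, 0.19 and -0.51, so that the differences from untreated cells were -0.12, 0.00 and -0.69 at 1, 4 and 6 h.

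**Figure D2:**
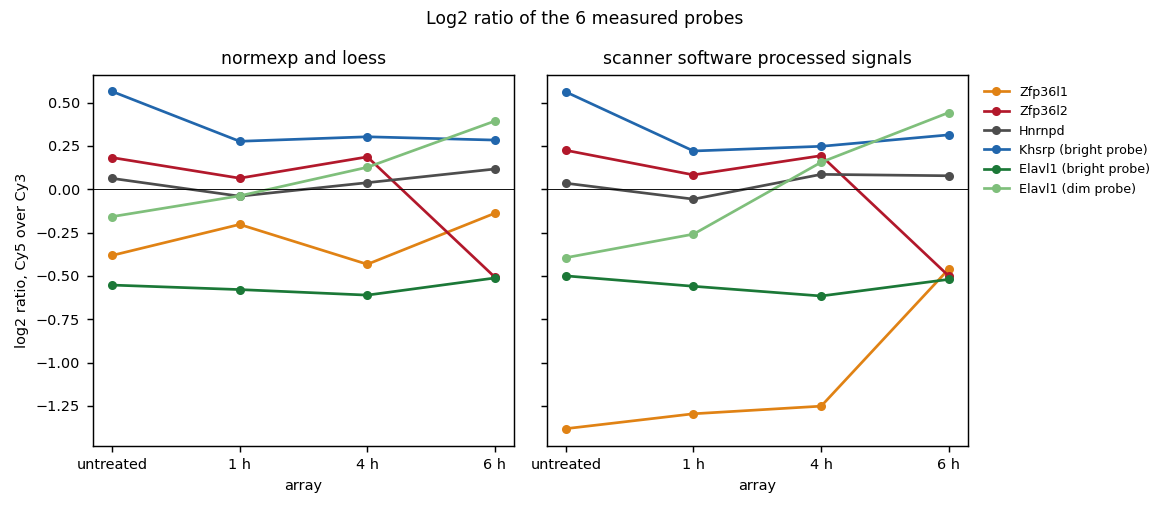
Log2 ratio of Cy5 over Cy3 (vertical axis) for the 6 probes well above background in both channels on all 4 arrays, after normexp and loess (left) and from the scanner software's processed signals (right). Zfp36l2 lies at 6 h at -0.51 and -0.50 in the left and right panel, whereas Zfp36l1 lies at -1.25 to -1.38 on the first 3 arrays in the right panel and at -0.43 to -0.20 in the left one.

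The spot error of a 6 h difference at the brightness of Zfp36l2 was 0.11, from 30 replicated probes. Between 4 and 6 h the difference was -0.70, with a spot error of 0.05, and 70 of 10502 measured genes were lower. Against untreated cells 216 of 10309 genes were lower at 6 h. The normalized Cy5 signal alone differed by -0.61 and the reference by 0.08, so most of the difference lay in the channel of the cells. In the scanner software's processed signals the difference was -0.73, with -0.49 in Cy5 and 0.23 in the reference. With a smaller rule of 0.5 in size, 0 of the 5 genes passed at 1 and 4 h, where 2.7% and 4.38% of all measured genes did. At 6 h Zfp36l2 alone passed it, beside 8.29% of all measured genes in either direction and 5.11% in the lower one. The dim probe of Elavl1 stood at 0.55, but the mean of that gene's 2 probes, 0.30, did not pass. The 6 h difference ran from -0.84 to -0.59 over the 12 alternatives and had the same sign in all of them. In bulk RNA, fewer cells with the transcript and less transcript per cell cannot be told apart. On the 6 h and untreated arrays the intestinal marker sums were 3728 and 3736 in Cy5 and 12137 and 18353 in the reference, and the smooth muscle and stromal sums in Cy5 were 4124 and 1657. Of the 8 intestinal markers measured at 6 h, 3 were higher by the rule of size, beside 0.456% of all measured genes. They were Reg3b (2.46), Lypd8 (1.82) and Reg3g (1.40). The 2 below 0 were Lct (-0.79) and Fabp2 (-0.24). In Cy5 alone the median of the 8 was -0.11, beside 0.04 over all measured genes. Lypd8 stood at 0.175 in Cy5 alone and -1.65 in the reference. Of 5 smooth muscle and stromal markers 2 were higher by the rule, beside the same 0.456%. Their median in Cy5 alone was 1.04. The part of all these markers in the Zfp36l2 value was not tested.

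The range of the ratio over the 4 arrays was 0.70 for Zfp36l2, as large as or larger than that of 94.1% of the 10107 genes measured on all of them, whose median range was 0.27. The other measured decay factors had ranges of 0.29 to 0.30, near that median, except Hnrnpd, whose range of 0.16 was below it. The 5 genes whose differences from untreated cells lay nearest to those of Zfp36l2, by Euclidean distance over the 3 times among 9797 named genes, were Eif5 (0.10), Tmem131l (0.14), Tlr7 (0.14), Slc35f6 (0.15) and Tsr2 (0.15). The 3 differences share the untreated array, so the distance rests on 4 arrays. Eif5, a translation initiation factor, and Tlr7, the endosomal receptor for single-stranded RNA, were also lower in Cy5 alone at 6 h, by -0.82 and -0.85 in log2. For Tmem131l, Slc35f6 and Tsr2 the Cy5 difference was -0.29, -0.21 and -0.32 and the reference stood 0.39, 0.41 and 0.26 higher. The reference thus held the larger part of the 6 h difference for Tmem131l and Slc35f6, and a smaller part for Tsr2.

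**Figure D3:**
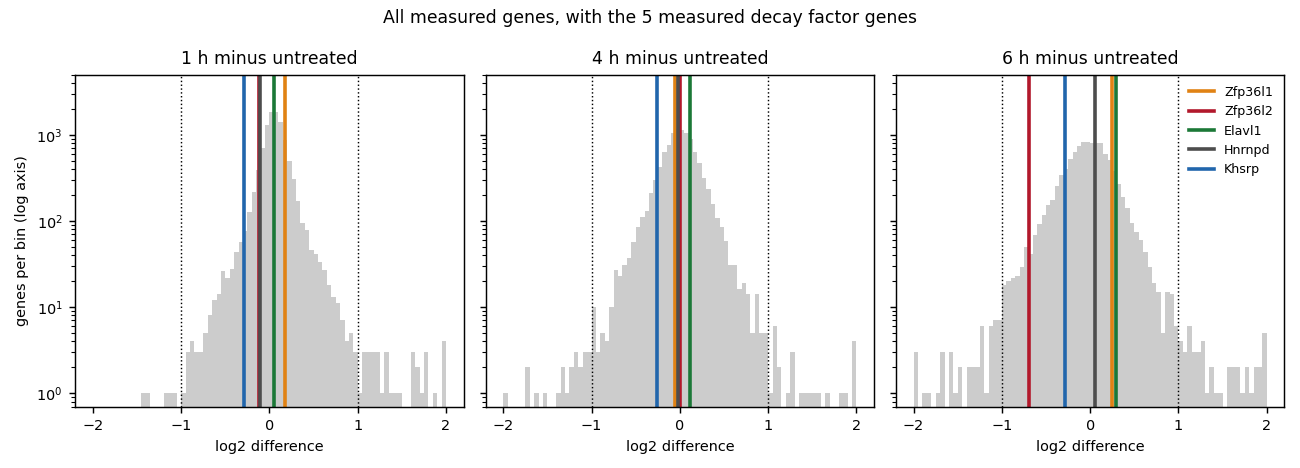
Numbers of measured genes (vertical log axis) by log2 difference from the untreated array at 1, 4 and 6 h, with values beyond 2 in size in the end bins, the 5 measured decay factors as coloured lines and the rule of size as dotted lines. The coloured lines lie between the dotted ones at each time, and Zfp36l2 at -0.69 stands apart from the other 4 at 6 h.

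Khsrp encodes KSRP, a KH domain protein that recruits decay enzymes to AU-rich messages and also takes part in microRNA processing. Its bright probe (NM_010613) had processed Cy5 signals of 1907, 1927, 1848 and 1712 in untreated cells and after 1, 4 and 6 h, a narrow span. Its reference signals were 1292, 1653, 1556 and 1377, lowest on the array of untreated cells. The log2 ratio was 0.56, 0.28, 0.30 and 0.28, giving differences of -0.29, -0.26 and -0.28 with spot errors of 0.15, 0.13 and 0.14. The 3 treated arrays were thus alike, and all lay below the untreated one. In Cy5 alone the differences were 0.07, 0.09 and -0.15, while the reference stood 0.36, 0.35 and 0.13 higher than on the untreated array. At 1 and 4 h the lower ratio thus went with a higher reference and not with a lower Cy5 signal. Single channels keep spot and array differences, so whether the level in the cells was lower was not tested. The other Khsrp probe was well above background in Cy5 only, at 44.6, 54.1, 57.0 and 62.3, and gave no ratio.

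Hnrnpd encodes AUF1, an RNA-binding protein with several isoforms, which the single probe (NM_001077265) was not shown to separate. Its processed Cy5 signals were 8276, 9586, 9329 and 10687 in untreated cells and after 1, 4 and 6 h, and its reference signals were 8080, 9975, 8790 and 10127. Both channels moved together, and the log2 ratio was 0.06, -0.04, 0.04 and 0.12. The differences of -0.10, -0.03 and 0.05 at 1, 4 and 6 h were within the spot errors of 0.12, 0.11 and 0.11. Hnrnpd had the smallest range of the measured decay factors, 0.16, and 19.9% of genes had a range up to that size.

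Elavl1 encodes HuR, which protects AU-rich messages, and its 2 probes, both assigned to NM_010485, disagreed. The bright probe had processed Cy5 signals of 6361, 7454, 7606 and 9253 in untreated cells and after 1, 4 and 6 h, with reference signals of 8994, 10989, 11658 and 13266. Both channels were higher on the later arrays, and the differences in the ratio were -0.03, -0.06 and 0.04, within a spot error of 0.12 to 0.13. The dim probe had Cy5 signals of 233, 273, 378 and 478 and a reference of 306, 327, 339 and 352, so that Cy5 was higher at each later time and passed the reference at 4 h. Its differences were 0.12, 0.29 and 0.55 at 1, 4 and 6 h, with a spot error of 0.13 at 6 h, and 0.14, 0.55 and 0.84 in processed signals. The mean of both probes, 0.05, 0.11 and 0.30, therefore describes neither of them. The place of each probe within the transcript was not analysed here.

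The enzymes that act after these factors were described from lists of decay genes. Of 17 deadenylase genes 15 were measured and 0 passed the rule at any time, with medians of 0.03, 0.03 and -0.03 at 1, 4 and 6 h. By the differences at 1, 4 and 6 h, Pan2, the catalytic subunit of the PAN2-PAN3 deadenylase, stood at -0.06, -0.46 and -0.46, Cnot1, the scaffold of the CCR4-NOT complex, at -0.11, -0.34 and -0.24, and Tob2, an adaptor that tethers it, at 0.29, 0.26 and -0.34. At 6 h Tob2 stood at -0.01 in Cy5 alone and 0.34 in the reference, so its lower ratio went with a higher reference. Pan2 stood at -0.24 in Cy5 alone and 0.21 in the reference at 6 h, and Cnot1 at -0.95 and -0.71. All 16 decapping and 5′-to-3′ decay genes were measured, with medians of 0.06, -0.01 and -0.03. Lsm7, a subunit of the LSM ring, was the 1 member past the rule, at -1.12 after 1 h, and stood at -0.91 and -0.97 later. Its Cy5 signal alone stood 0.20, 0.43 and 0.52 higher than in untreated cells and its reference 1.33, 1.34 and 1.50 higher. The ratio and the channel of the cells thus differed in direction, and which of them reflects the level in the cells was not tested. Dcp1b, a cofactor of the decapping enzyme, stood at 0.00, -0.45 and -0.49, and Lsm5, another ring subunit, at -0.03, -0.12 and 0.26.

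Of 15 exosome and SKI complex genes 12 were measured and 0 passed the rule. At 6 h 10 of the 12 lay below 0, with a median of -0.15, whereas 47.9% of all measured genes lay above 0. Exosc10, a nuclear exonuclease of the complex, stood at -0.43 at 6 h, and Exosc8, a ring subunit, and Dis3l, a cytoplasmic exonuclease, at -0.32 each. Of the other RNA-binding proteins 13 of 18 were measured and 0 passed the rule. Zc3h12a, the endonuclease Regnase-1, was among the 5 not measured. Hnrnpab, a relative of AUF1, had differences of -0.64, -0.42 and -0.51. In Cy5 by itself it stood 0.26, 0.55 and 0.37 higher than in untreated cells, and the reference 0.90, 0.97 and 0.88 higher. Rc3h1, the stem-loop binding protein Roquin-1, stood at 0.14, 0.30 and -0.21, and Ybx1, a general mRNA packaging protein, at -0.18, -0.04 and 0.27.

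**Figure D4:**
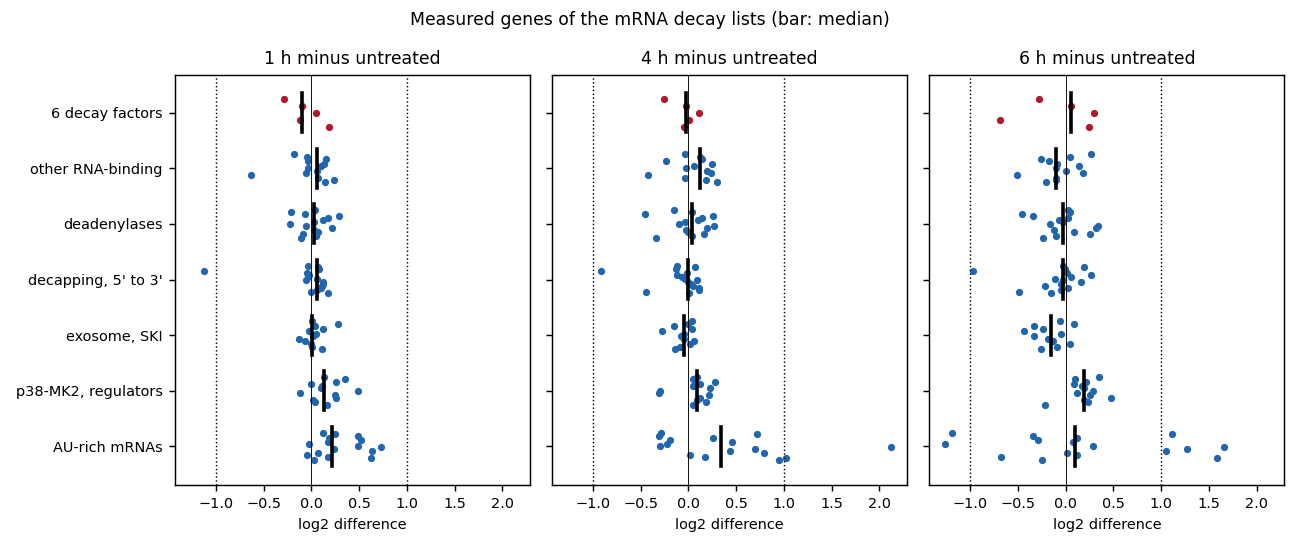
Log2 difference from untreated cells at 1, 4 and 6 h for each measured gene of the decay lists (1 point per gene), with the list median as a bar and the rule of size as dotted lines. Points past the dotted lines lie in the list of AU-rich messages at 4 and 6 h and, for Lsm7 alone, in the decapping list at 1 h.

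TTP is held inactive when the kinase MK2, downstream of p38, phosphorylates it, and phosphatases reverse this. All 13 genes listed for this axis were measured and 0 passed the rule. Their medians were 0.14, 0.09 and 0.19 at 1, 4 and 6 h, and 11, 11 and 12 of the 13 lay above 0, beside 70.6%, 50.9% and 47.9% of all measured genes. In Cy5 alone 10, 11 and 8 of the 13 lay above 0, beside 61.7%, 56.7% and 54.5% of all measured genes, so the count at 6 h depended on the reference channel. Mapkapk3, a kinase closely related to MK2, stood at 0.26, 0.12 and 0.48, but at 0.92, 0.96 and 1.80 in processed signals, where it passed the rule at 6 h beside 4.11% of all measured genes. Dusp1, the phosphatase that switches p38 off, stood at 0.49, -0.30 and 0.28, and Ppp2r1a, the scaffold of protein phosphatase 2A, at 0.13, 0.09 and 0.35. In Cy5 alone Dusp1 stood 0.91, 0.51 and 1.18 higher than in untreated cells, so its direction at 4 h differed between the ratio and the channel of the cells. Mapkapk2, which encodes MK2, stood at 0.01, 0.09 and 0.19.

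The messages on which these factors act were represented by 24 short-lived transcripts, most of them known carriers of AU-rich elements; the elements were not searched for here. Of these 16 were measured, and Il1b, Il6, Il10, Csf2 and Cxcl1 were among the 8 that were not. At 1, 4 and 6 h, 0, 2 and 5 of the 16 were higher by the rule, beside 0.328%, 0.242% and 0.456% of all measured genes, and 0, 0 and 2 were lower, beside 0.0482%, 0.213% and 0.466%. The 2 at 4 h were Ier3 (2.12) and Cxcl2 (1.02). The genes higher at 6 h were Ier3 (1.66), Cxcl2 (1.58), Csf3 (1.27), Cxcl10 (1.11) and Ptgs2 (1.05), which encode an early response protein, 2 chemokines, the granulocyte colony-stimulating factor and the inducible cyclooxygenase. Fos, the AP-1 subunit, was lower by the rule at -1.26 and Nfkbid, which encodes an atypical nuclear IkB protein, at -1.18. Of these genes Cxcl2 (1.56), Csf3 (1.46) and Fos (-1.36) were past 1 in size in Cy5 alone at 6 h. Ier3 (0.95), Cxcl10 (0.87), Ptgs2 (0.73) and Nfkbid (-0.76) were not. Ccl3 (4.48), Dusp1 (1.18) and Plk3 (-1.67) were also past 1 in size in Cy5 alone. Their reference stood at 4.36, 0.89 and -1.33, so their ratios did not pass the rule. The share of all measured genes past 1 in Cy5 alone was not computed. The SD over all measured genes at 6 h was 0.462 in Cy5 alone and 0.305 in the ratio. The reference stood at -0.70 for Ier3 and 0.42 for Nfkbid. These messages thus differed in both directions on the array on which Zfp36l2 was lowest. Dusp1 belongs to this list as well as to the kinase list. The list was assembled with earlier results of these data known, so its counts are not independent evidence.

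**Figure D5:**
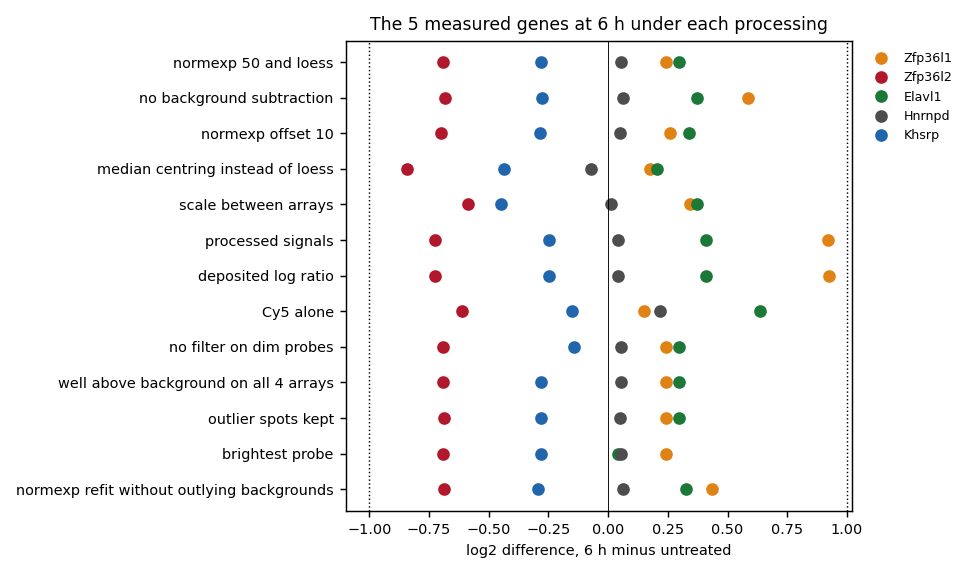
Log2 difference of the 5 measured genes between the 6 h and untreated arrays (horizontal axis) under the processing reported here (top row) and 12 alternatives, with the rule of size as dotted lines. Zfp36l2 lies between -0.84 and -0.59 in all rows, and Zfp36l1 between 0.15 and 0.92.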

How the data were processed

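Each group's scanner file was deposited by the authors, and the submitters' processing notes name Agilent Feature Extraction 10.5.1.1. The intensity columns, per the file headers, give spot and local background medians and a processed signal that the software had corrected for background and dye. The authors also deposited a log10 ratio (Cy5 to Cy3), in the scanner files and in a table of the series.

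Here limma 3.58.1 (R 4.3.3) applied normexp with an offset of 50 to the medians, then loess within each array, giving control and outlier spots no weight. Outlier spots were dropped, spots of a probe averaged, and then a gene's measured probes. Single channels were read after Aquantile normalization. A single channel keeps spot and array differences that the ratio removes, so it does not by itself give the level in the cells. Probes took gene symbols by accession from a RefSeq table of GRCm38.p6. Spot error came from probes printed in 10 spots, within 1 log2 unit of a member's brightness. The steps were tested on simulated arrays, all made from the spots and backgrounds of the untreated array. Differences in background between arrays were therefore not covered, and all planted changes were larger than the rule of size.

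Members, lists and tests were chosen with earlier results of these data known. From the other lists the text names genes past the rule of size and up to 3 with the largest differences. Zc3h12a, Mapkapk2, Fabp2, Ccl3, Plk3 and the unmeasured genes were named besides, after their values were seen. Alternatives were 12 planned and 1, the refit of normexp, added after seeing the data. Plots were drawn with matplotlib 3.10.9 in Python 3.11.15.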

Additional observations from a re-analysis of the deposited data

How the results depend on the processing

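The count of decay factor genes past the rule of size was 0 at 1, 4 and 6 h under each alternative but 1: with a rule of 0.5 in place of 1 it was 1 at 6 h, Zfp36l2. Without loess, under median centring, the median of all measured genes at 1 h was 0.86. Zfp36l2, Elavl1, Hnrnpd and Khsrp stood at 0.96, 0.87, 0.95 and 0.65, near that shift. After normexp, the differences of these 4 from untreated cells at 1 h thus depended on the loess step. In the scanner software's processed signals, which did not pass through this loess, they stood at -0.14, 0.04, -0.09 and -0.34. The differences at 6 h of Zfp36l1, Zfp36l2, Elavl1 and Khsrp had the same sign in the 12 alternatives that change the values. That of Hnrnpd had it in 11, turning to -0.07 under median centring. For Elavl1 the sign is mostly that of a mean of 2 probes that disagreed. Its bright probe stood at 0.04, and at -0.02 in processed signals. No replicate was left out, since each group had 1 array. No paired analysis was possible because each group had 1 array.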

Other observations

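Zfp36l3, a further member of the TTP family that is known from mouse placenta, was outside the gene list described above. Its probe was well above background in Cy5 on all 4 arrays, with processed signals of 34.4, 33.0, 32.8 and 34.0 in untreated cells and after 1, 4 and 6 h, and was not so in the reference on any array, at 24.2, 24.3, 14.6 and 15.6. The probe of Zfp36 on the same arrays was not well above background in Cy5. Signals of different probes do not rank the levels of their mRNAs. Whether other transcripts bound to either probe was not examined.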
